A study of Danio rerio with 18 samples.

Results

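Of the 32520 gene IDs in the expression table, 55 carried the symbol of an ADAM, ADAMTS, ADAMTS-like, TIMP or lysyl oxidase gene, and these 55 are described here. They were chosen by symbol alone, without regard to case and with no measured value used: 17 were ADAM genes, 19 ADAMTS genes, 4 ADAMTS-like genes, 5 TIMP genes and 10 lysyl oxidase genes. The 55 IDs had 46 symbols, and 17 IDs shared a symbol with another ID. These are called copies and are named by ID. Among the 55, 6 were listed at 0 in every library (adam10b, loxl5a, a LOXL4 copy and 3 TIMP4 copies). The other 49 passed the minimum signal of 10 in 3 or more libraries and were tested.

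RNA of caudal fin clips was sequenced in bulk from fish homozygous for a knockout of s1, a regeneration-associated silencer (KO), and from wild-type (WT) sibling fish. Silencers are stretches of non-coding DNA that lower the transcription of other genes. Both genotypes were of Ekkwill (EK) background, an outbred zebrafish strain, and were about 4 to 8 months old, and the KO line was derived from EK. All fish were anaesthetised in 2-phenoxyethanol, and fins were cut at 50% of their length. The 6 groups were KO and WT fins at 0 days post amputation (dpa, the freshly cut fin), at 1 dpa and at 4 dpa. Each group held 3 libraries, and each library came from its own pool of 10 fish, so the spread between libraries is that between pools and not between single fish. How many KO alleles or founder fish the line goes back to is not given in the sources used here.

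ADAM proteins are membrane-bound metalloproteases that cut the outer parts off other membrane proteins and so release growth factors, cytokines and adhesion molecules. ADAMTS proteins are their secreted relatives, which carry thrombospondin repeats and act in the extracellular matrix: some trim the ends of procollagens, some cut large proteoglycans such as versican and aggrecan, and ADAMTS-like proteins keep the repeats but have no protease domain. TIMPs inhibit matrix metalloproteases and several ADAM and ADAMTS enzymes, and lysyl oxidases crosslink collagen and elastin. After amputation a zebrafish fin closes its wound, builds a blastema of proliferating cells and regrows its rays, and each of these steps remodels matrix.

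A library held between 58.6 M and 155 M reads on genes, and values are given as signal, the read count divided by the size factor of the library. Differences were fitted across 22779 genes on log2(signal + 1) with limma, are given as log2 changes ± the standard error (SE), and are called when the two-sided p, with Benjamini-Hochberg adjustment across these 22779, is under 0.05. The 5 most abundant genes of the table took between 2.71% and 90.5% of a library's reads. At 0 dpa their share was 57.9%, 2.71% and 32.3% in KO fins and 34.3%, 3.61% and 4.56% in WT fins. At 1 dpa it was 10.9%, 72.0% and 76.9% in KO fins and 62.2%, 58.3% and 84.3% in WT fins. At 4 dpa it was 79.0% to 82.9% in KO fins and 87.5% to 90.5% in WT fins. In KO fins the shares at 0 and 1 dpa overlapped but were not balanced. The part of the share in the change between these times was not tested. In every other comparison over time, and for KO against WT at 4 dpa, the shares did not overlap. Those changes thus cannot be told apart from differences in this share. At 0 and 1 dpa the shares of KO and WT libraries overlapped but were not balanced. The part of this imbalance in KO against WT there was not tested. With less than 20%, 4 libraries stood apart: KO 0 dpa replicate 2, WT 0 dpa replicates 2 and 3 and KO 1 dpa replicate 1. They are called the low-share libraries, and values without them are given where a call described here was lost or its fold change moved by about 1.5 times or more. Where leaving out any 1 library ended a call, those libraries are named, with the range of log2 changes and adjusted p over the fits without each of them. Leaving out the low-share libraries leaves 1 WT library at 0 dpa, which is then assumed to vary like the other groups. Of 9 marker genes of the caudal fin, hoxa13a, hoxa13b and a COL10A1 copy were listed at 0 in every library, and the other 6 were detected in every group. In bulk tissue, fewer cells of a type and less RNA per cell cannot be told apart. Lengths were not used, so signals are compared between libraries for 1 gene and not between genes.

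The members split by time. At 1 dpa a small set had risen steeply, led by adam8a, a TIMP2 copy and adamtsl7, while LOXL4 and an ADAMTS8 copy had fallen. At 4 dpa most ADAMTS genes and the lysyl oxidases LOX, LOXL2 and a LOXL3 copy stood above 0 dpa in both genotypes, and no member was called between KO and WT fins at any time.

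In KO fins, 12 of the 49 members rose and 7 fell between 0 and 1 dpa, or 24.5% and 14.3%, against 15.4% and 13.9% of all tested genes. The share that fell thus lay at the background. In WT fins 16 rose and 6 fell, or 32.7% and 12.2%, against 19.1% and 21.1% of all tested genes. Between 0 and 4 dpa, 28 rose and 6 fell in KO fins, against 23.3% and 25.7% of all tested genes. In WT fins 30 rose and 3 fell, against 25.9% and 29.6%. The median log2 change of the members at 4 dpa was 0.90 in KO fins and 1.06 in WT fins, while that of all tested genes was -0.02 in KO fins and -0.03 in WT fins. Between 1 and 4 dpa, 24 members rose and 7 fell in KO fins, against 11.6% and 16.2% of all tested genes, and 20 rose and 7 fell in WT fins, against 7.17% and 6.61%. Both genotypes called 27 members higher and 2 lower at 4 dpa than at 0 dpa, and 12 higher and 4 lower at 1 dpa than at 0 dpa, with 0 called in opposite directions. The share of all tested genes called alike in both genotypes is not given here. These shared counts thus do not show whether the members differ from other genes in this. The libraries of the compared times did not overlap for 42.9% (KO) and 53.1% (WT) of the members at 1 against 0 dpa, near the 37.1% and 51.7% of all tested genes. For 4 against 0 dpa the shares were 69.4% (KO) and 73.5% (WT), against 59.9% and 58.6% of all tested genes. For 4 against 1 dpa they were 69.4% in both genotypes, against 49.6% (KO) and 42.6% (WT).

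These counts depend on the scaling. The counts in this paragraph are given without the share of all tested genes called under the same setting. They thus do not show whether the members exceed that share there. With totals made equal outside the 5 most abundant genes, the median log2 change of all genes was 0.42 (KO) and 0.76 (WT) at 1 dpa and 0.87 (KO) and 0.72 (WT) at 4 dpa. The counts became 12 higher and 1 lower (KO) and 28 and 1 (WT) at 1 dpa, and 38 and 0 (KO) and 36 and 1 (WT) at 4 dpa. With the share of the 5 genes as a covariate they were 11 and 10 (KO) and 9 and 8 (WT) at 1 dpa, and 27 and 7 (KO) and 21 and 5 (WT) at 4 dpa. Without the low-share libraries they were 11 and 9 (KO) and 13 and 5 (WT) at 1 dpa, and 29 and 7 (KO) and 27 and 5 (WT) at 4 dpa.

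**Figure D1:**
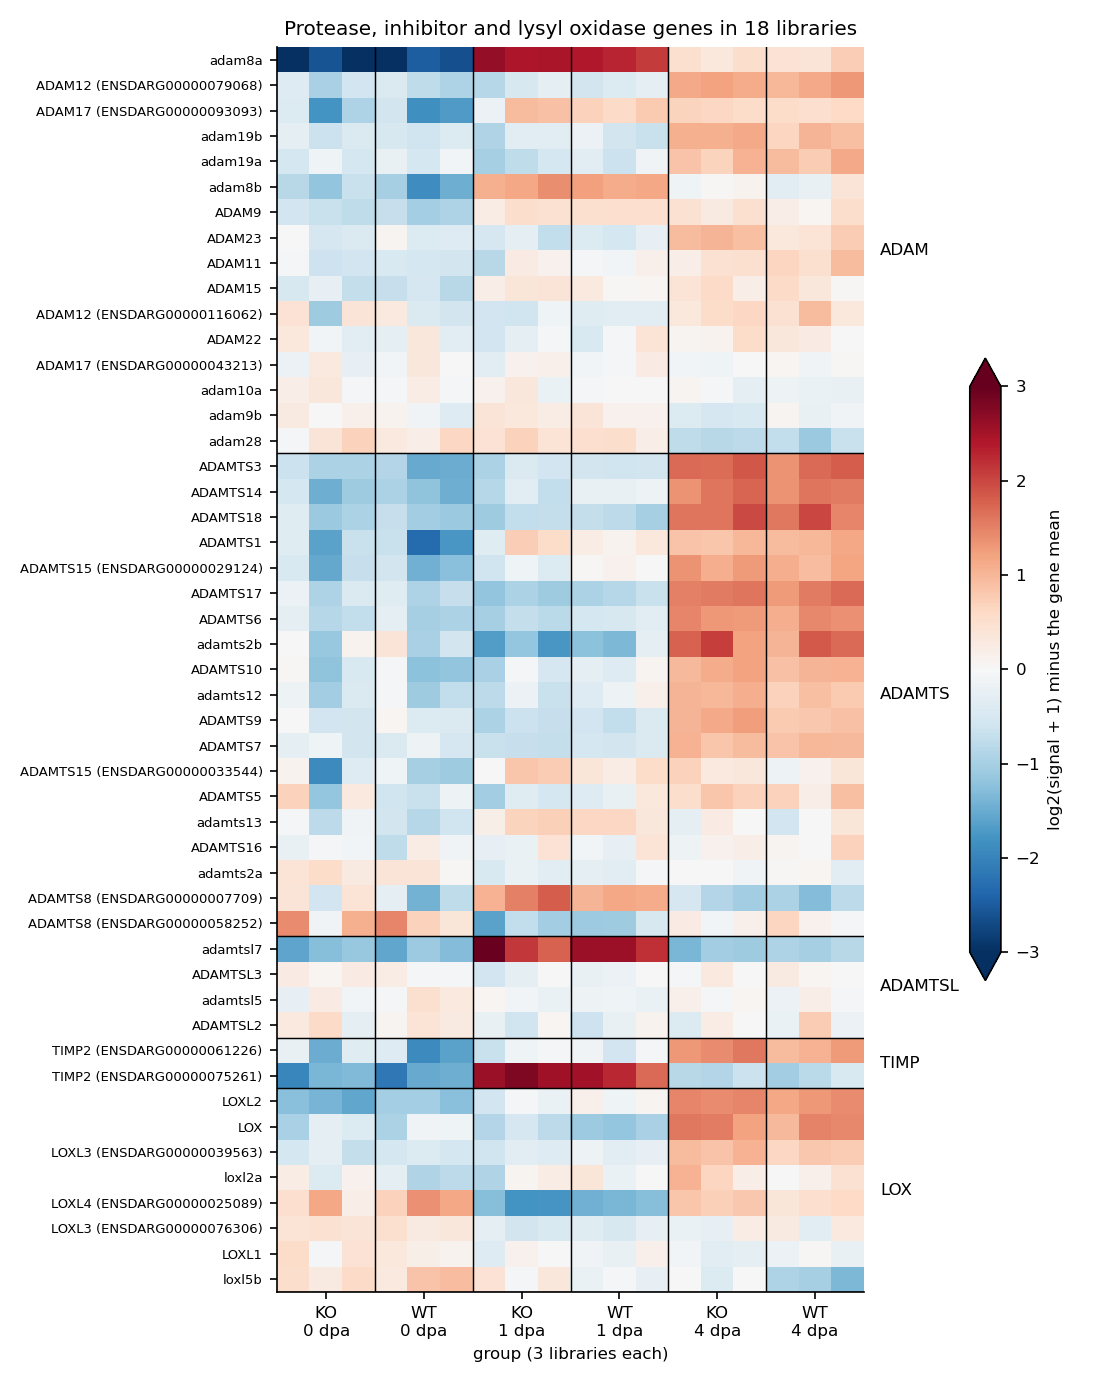
Each row is 1 of the 49 tested members and each column 1 of the 18 libraries, with KO left of WT at each time; colour is log2(signal + 1) minus the mean of the gene over all libraries, from blue (lower) to red (higher). Most ADAMTS rows are red in the 6 libraries of 4 dpa, while adam8a, adamtsl7 and the TIMP2 copy ENSDARG00000075261 are darkest red at 1 dpa.

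Among the ADAM sheddases, the strongest change was that of adam8a (ENSDARG00000001452), whose mammalian counterpart is a protease of leukocytes and of other cells in inflamed tissue. Its signal in KO fins was 106, 173 and 129 at 0 dpa, 6499, 5634 and 5793 at 1 dpa and 1466, 1321 and 1515 at 4 dpa. In WT fins it was 116, 189 and 167 at 0 dpa, 5542, 5167 and 4487 at 1 dpa and 1432, 1385 and 1746 at 4 dpa. In both genotypes every 1 dpa library lay above every 4 dpa library, and every 4 dpa library above every 0 dpa library. The log2 change from 0 to 1 dpa was 5.47 ± 0.20 (adjusted p = 4.46e-11) in KO fins and 5.02 ± 0.20 (adjusted p = 1.16e-10) in WT fins. At 4 dpa it was still 3.41 ± 0.20 (adjusted p = 3.84e-09) in KO fins and 3.29 ± 0.20 (adjusted p = 1.00e-08) in WT fins. The related adam8b (ENSDARG00000057644) read 841, 653 and 939.5 at 0 dpa, 3132, 3334 and 3921 at 1 dpa and 1375, 1530.0 and 1595 at 4 dpa in KO fins. WT fins read 749, 408 and 543 at 0 dpa, 3530.3, 3251 and 3328 at 1 dpa and 1205, 1286 and 1959 at 4 dpa for it. Its 1 dpa libraries also stood above all others. From 0 to 1 dpa adam8b rose by 2.10 ± 0.22 (adjusted p = 3.21e-06) in KO fins and 2.61 ± 0.22 (adjusted p = 3.31e-07) in WT fins. At 4 dpa it kept a rise of 0.90 ± 0.22 (adjusted p = 0.00327) in KO fins and 1.40 ± 0.22 (adjusted p = 0.000104) in WT fins. The KO call at 4 dpa was lost with the share of the 5 most abundant genes as a covariate (0.59, adjusted p = 0.0745).

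The 6 neutrophil markers measured alongside summed to 940 to 965 in KO fins at 1 dpa, against 257 to 273 in KO fins at 0 dpa. They summed to 928 to 1081 in WT fins at 1 dpa, against 280.5 to 370 in WT fins at 0 dpa. At 4 dpa the sums were 476 to 488 (KO) and 423 to 499.6 (WT). None of these markers was at 0 in every group, although CXCR1 was listed at 0 in WT fins at 0 dpa and lyz in KO fins at 4 dpa. Of the 5 neutrophil markers tested, 3 rose and 0 fell at 1 dpa in KO fins, and 3 rose and 1 fell in WT fins. The 14 macrophage markers, of which 3 MFAP4 copies were at 0 throughout, had sums of 21094 to 42884 in KO fins at 1 dpa against 131951 to 215493 at 0 dpa. In WT fins the sums were 22904 to 30285 at 1 dpa against 111549 to 239024 at 0 dpa. Of the 8 macrophage markers tested, 1 rose and 1 fell at 1 dpa in each genotype. Their median log2 change was -0.24 in KO fins and -1.08 in WT fins. A sum is weighted by its most abundant genes, so the fall of these sums does not stand for each marker. The part of either cell type in the adam8a and adam8b values was not tested.

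ADAM17, the enzyme that frees tumour necrosis factor and ligands of the EGF receptor, had a copy that moved and a copy that did not pass the test. ENSDARG00000093093 read 593, 227 and 409 at 0 dpa, 691, 1519 and 1441 at 1 dpa and 1254, 1211 and 1155 at 4 dpa in KO fins. WT fins had 537, 218 and 242 at 0 dpa, 1261, 1163 and 1345 at 1 dpa and 1158, 1116 and 1187 at 4 dpa. All 12 libraries of 1 and 4 dpa lay above every 0 dpa library, with KO 1 dpa replicate 1, a low-share library, the lowest of them. The rise at 1 dpa was 1.59 ± 0.36 (adjusted p = 0.0031) in KO fins and 2.04 ± 0.36 (adjusted p = 0.000423) in WT fins. The rise at 4 dpa was 1.66 ± 0.36 (adjusted p = 0.00129) in KO fins and 1.92 ± 0.36 (adjusted p = 0.000365) in WT fins. The WT call at 4 dpa was lost with the share of the most abundant genes as a covariate (0.33, adjusted p = 0.44). Without the low-share libraries the WT changes were smaller, 1.22 (adjusted p = 0.000173) at 1 dpa and 1.1 (adjusted p = 0.00024) at 4 dpa. The other copy, ENSDARG00000043213, spanned 757 to 1203 over all 18 libraries, with log2 changes of 0.03 in KO fins and -0.05 in WT fins at 1 dpa. The partner sheddase adam10a (ENSDARG00000053468), which cuts Notch receptors and cadherins, was called in no comparison, with changes of -0.26 ± 0.16 (adjusted p = 0.205) in KO fins and -0.24 ± 0.16 (adjusted p = 0.229) in WT fins at 4 dpa.

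ADAM9 (ENSDARG00000010070), another widely expressed sheddase, rose early and stayed up. Its mean signal in KO fins was 956 ± 62.5 at 0 dpa, 2015 ± 219.8 at 1 dpa and 1999 ± 157 at 4 dpa (SD, n = 3 each), and in WT fins 827 ± 95.5, 2144 ± 31.4 and 1838 ± 306 at these times. The rise at 1 dpa was 1.07 ± 0.15 (adjusted p = 5.48e-05) in KO fins and 1.38 ± 0.15 (adjusted p = 4.77e-06) in WT fins. Its relative adam9b (ENSDARG00000057138) fell in KO fins, with a log2 change from 0 to 4 dpa of -0.60 ± 0.15 (adjusted p = 0.00409). In WT fins its change was 0.06 ± 0.15 (adjusted p = 0.776), not called, and the difference between the genotypes in this change was -0.66 ± 0.22 with an adjusted p of 0.992.

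A second group, ADAM12 and the ADAM19 genes, known from muscle, bone and heart development in mammals, rose late. The ADAM12 copy ENSDARG00000079068 read 522, 348 and 460.3 at 0 dpa, 379.6, 488 and 567 at 1 dpa and 1492, 1570.3 and 1476 at 4 dpa in KO fins. WT fins read 508, 402 and 359.5 at 0 dpa, 462, 512 and 566 at 1 dpa and 1353, 1512 and 1687 at 4 dpa. Its 4 dpa libraries stood clear of the overlapping 0 and 1 dpa libraries, with rises from 0 to 4 dpa of 1.79 ± 0.19 (adjusted p = 2.14e-06) in KO fins and 1.85 ± 0.19 (adjusted p = 1.90e-06) in WT fins. The paralogs adam19a (ENSDARG00000059693) and adam19b (ENSDARG00000067545) both rose. From 0 to 4 dpa adam19a rose by 1.26 ± 0.20 (adjusted p = 0.000104) in KO fins and 1.23 ± 0.20 (adjusted p = 0.000119) in WT fins. Over the same time adam19b rose by 1.55 ± 0.19 (adjusted p = 1.08e-05) in KO fins and 1.36 ± 0.19 (adjusted p = 4.16e-05) in WT fins. For the second ADAM12 copy, ENSDARG00000116062, the change at 4 dpa was 0.58 ± 0.33 (adjusted p = 0.156) in KO fins and 0.80 ± 0.33 (adjusted p = 0.0475) in WT fins. That WT call was lost without WT 0 dpa replicates 2 or 3 or WT 4 dpa replicates 1 or 2 (0.62 to 0.86, adjusted p 0.0686 to 0.171), and with all low-share libraries left out it was 0.28 (adjusted p = 0.392).

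Only adam28 (ENSDARG00000035514), known as a protease of lymphocytes in humans, fell among the ADAM genes in both genotypes. It read 2052, 2793 and 3476 at 0 dpa, 2868, 3440.5 and 2844 at 1 dpa and 1253, 1200.1 and 1249.9 at 4 dpa in KO fins. The WT libraries held 2603, 2463 and 3308 at 0 dpa, 3045, 3088 and 2454 at 1 dpa and 1289, 997 and 1338 at 4 dpa. Every 4 dpa library lay below every library of the earlier times, and the log2 change from 0 to 4 dpa was -1.13 ± 0.19 (adjusted p = 0.000203) in KO fins and -1.21 ± 0.19 (adjusted p = 0.000115) in WT fins. With totals made equal outside the 5 most abundant genes, neither call held. The changes were then -0.22 (adjusted p = 0.539) in KO fins and -0.44 (adjusted p = 0.214) in WT fins. Of the 16 tested ADAM genes, 10 rose and 2 fell at 4 dpa in KO fins, and 11 rose and 1 fell in WT fins. These are 62.5% and 12.5% (KO) and 68.8% and 6.25% (WT), against 23.3% and 25.7% (KO) and 25.9% and 29.6% (WT) of all tested genes. At 1 dpa the same count of 5 rose in each genotype (adam8a, adam8b, ADAM9, ADAM15 and the ADAM17 copy ENSDARG00000093093) and 0 fell. These are 31.2% and 0%, against 15.4% and 13.9% (KO) and 19.1% and 21.1% (WT) of all tested genes.

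**Figure D2:**
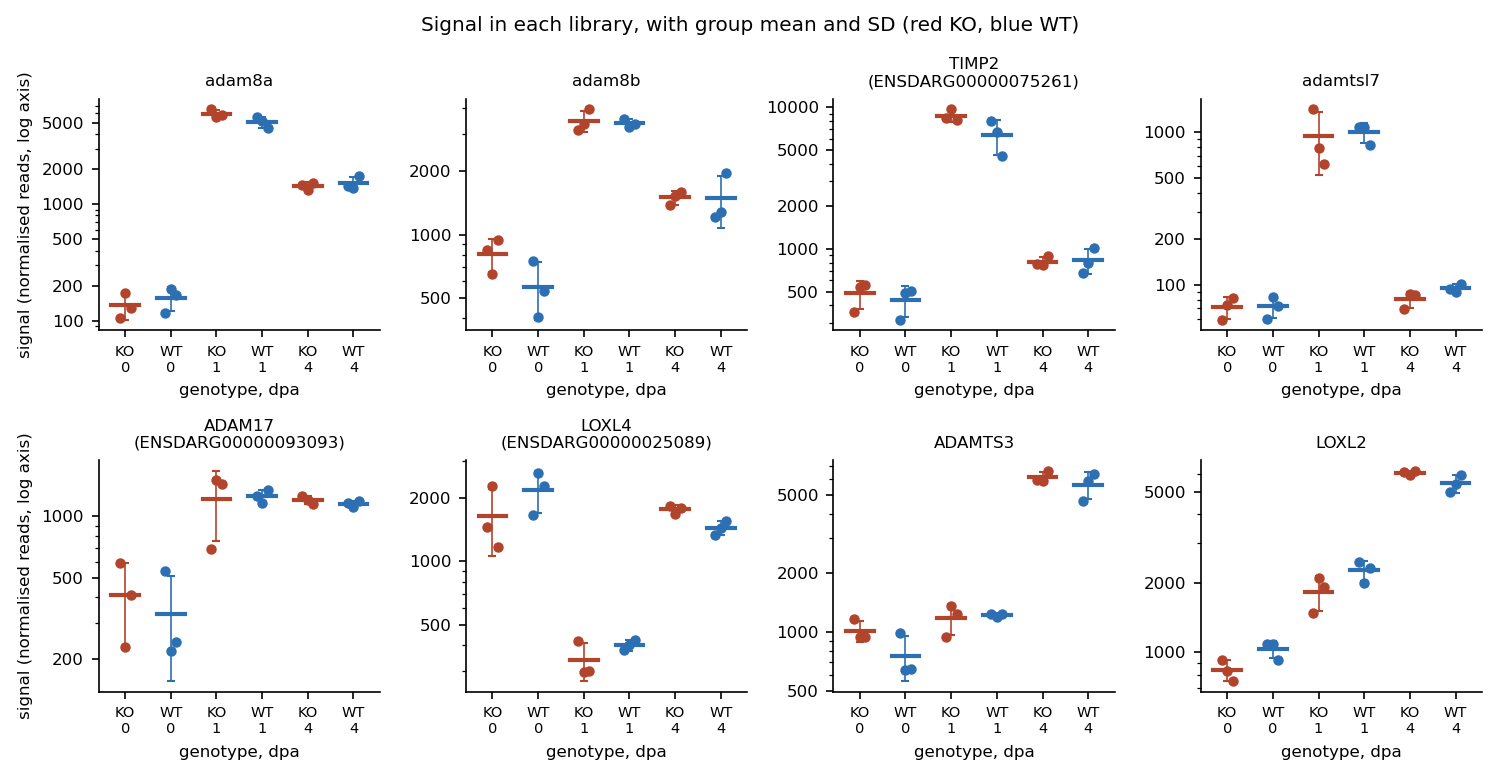
Signal on a log axis in each of the 3 libraries (points) of the 6 groups, with the mean (line) and SD (bar), for 8 members; KO is red and left of WT, in blue. adam8a reaches 4487 to 6499 at 1 dpa, LOXL4 drops to 297 to 425 at 1 dpa, and ADAMTS3 reaches 4640.3 to 6597 at 4 dpa.

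Of the 19 ADAMTS genes, 13 rose and 2 fell at 4 dpa in KO fins, and 13 rose and 0 fell in WT fins. That is 68.4% and 10.5% (KO) and 68.4% and 0% (WT), against 23.3% and 25.7% (KO) and 25.9% and 29.6% (WT) of all tested genes. The procollagen N-proteinases of this family are ADAMTS2, ADAMTS3 and ADAMTS14. They remove the amino-terminal propeptide of fibrillar procollagens so that fibrils can form. ADAMTS3 (ENSDARG00000060127), also known for activating the lymphatic growth factor VEGFC in fish and mouse, read 1159, 944 and 936 at 0 dpa, 935, 1345 and 1227 at 1 dpa and 5905, 5829 and 6597 at 4 dpa in KO fins. Its signal in WT fins was 980.2, 637 and 648 at 0 dpa, 1236, 1191 and 1233 at 1 dpa and 4640.3, 5858 and 6347 at 4 dpa. The 4 dpa libraries stood far above the rest, with a rise of 2.60 ± 0.19 (adjusted p = 4.04e-08) in KO fins and 2.91 ± 0.19 (adjusted p = 1.69e-08) in WT fins. At 1 dpa it was at 0.20 ± 0.19 (adjusted p = 0.47) in KO fins and 0.72 ± 0.19 (adjusted p = 0.00711) in WT fins, and the WT value was 0.32 (adjusted p = 0.229) without the low-share libraries. ADAMTS14 (ENSDARG00000078494) followed at 2.59 ± 0.22 (adjusted p = 2.30e-07) in KO fins and 2.71 ± 0.22 (adjusted p = 1.80e-07) in WT fins. It was also higher at 4 than at 1 dpa, by 2.21 ± 0.22 (adjusted p = 2.70e-06) in KO fins and 1.70 ± 0.22 (adjusted p = 7.09e-05) in WT fins.

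The genes adamts2a (ENSDARG00000075930) and adamts2b (ENSDARG00000100772) were called in opposite directions at 4 dpa in KO fins. The signal of adamts2b in KO fins was 97, 43.3 and 103 at 0 dpa, 29.3, 42.7 and 28.1 at 1 dpa and 329.7, 405 and 223 at 4 dpa. In WT fins it was 127, 48.2 and 64.8 at 0 dpa, 40.7, 37.4 and 78.2 at 1 dpa and 195, 344 and 314 at 4 dpa. Every 4 dpa library lay above every earlier one, and the rise from 0 to 4 dpa was 2.02 ± 0.41 (adjusted p = 0.000849) in KO fins and 1.90 ± 0.41 (adjusted p = 0.00111) in WT fins. Without the low-share libraries the WT value was 1.12 (adjusted p = 0.0556), which ends the call. The WT rise from 1 to 4 dpa was 2.46 ± 0.41 (adjusted p = 0.000716). At 1 dpa adamts2b was at -1.18 ± 0.41 (adjusted p = 0.0393) in KO fins and -0.57 ± 0.41 (adjusted p = 0.282) in WT fins. The KO call was lost without KO 0 dpa replicates 1 or 3 or KO 1 dpa replicates 1 or 3 (-1.10 to -0.96, adjusted p 0.0826 to 0.144). The change of adamts2a at 1 dpa was -0.73 ± 0.15 (adjusted p = 0.00197) in KO fins and -0.49 ± 0.15 (adjusted p = 0.0195) in WT fins. In WT fins this call was lost without WT 0 dpa replicate 2 or WT 1 dpa replicates 1 or 2 (-0.46 to -0.43, adjusted p 0.0634 to 0.0803). The KO call at 1 dpa was lost with totals made equal outside the 5 most abundant genes (-0.26, adjusted p = 0.581). At 4 dpa adamts2a was at -0.45 ± 0.15 (adjusted p = 0.0234) in KO fins and -0.35 ± 0.15 (adjusted p = 0.0657) in WT fins. The KO call was lost without KO 0 dpa replicate 2 or KO 4 dpa replicates 2 or 3 (-0.46 to -0.38, adjusted p 0.0503 to 0.0813).

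Of the ADAMTS enzymes known to cut versican and aggrecan, ADAMTS1 (ENSDARG00000103519) read 686, 291 and 558 at 0 dpa, 688, 1467 and 1287 at 1 dpa and 1609.5, 1568 and 1776 at 4 dpa in KO fins. In WT fins the values were 552, 178 and 261 at 0 dpa, 1025, 943 and 1103 at 1 dpa and 1717, 1769 and 1969 at 4 dpa. All 4 dpa libraries lay above all 0 dpa libraries, with a rise of 1.78 ± 0.36 (adjusted p = 0.000911) in KO fins and 2.62 ± 0.36 (adjusted p = 3.59e-05) in WT fins. The low 0 dpa values were those of the low-share libraries. Without those, the rise at 4 dpa was 1.41 (adjusted p = 5.76e-07) in KO fins and 1.72 (adjusted p = 3.00e-06) in WT fins. At 1 dpa ADAMTS1 was at 1.18 ± 0.36 (adjusted p = 0.0221) in KO fins and 1.79 ± 0.36 (adjusted p = 0.00136) in WT fins. The WT call at 1 dpa was lost with the share of the most abundant genes as a covariate (0.69, adjusted p = 0.074). The WT change without the low-share libraries was 0.89 (adjusted p = 0.00113). The KO call was lost without KO 0 dpa replicate 2 or KO 1 dpa replicates 2 or 3 (0.82 to 1.06, adjusted p 0.0811 to 0.111).

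ADAMTS9 (ENSDARG00000077778) and the ADAMTS15 copy ENSDARG00000029124 rose at 4 dpa as well. ADAMTS9 rose by 1.51 ± 0.18 (adjusted p = 9.72e-06) in KO fins and 1.08 ± 0.18 (adjusted p = 0.000198) in WT fins. Its WT call was lost with the share of the most abundant genes as a covariate (0.48, adjusted p = 0.143). The ADAMTS15 copy rose by 2.15 ± 0.25 (adjusted p = 7.09e-06) in KO fins and 2.16 ± 0.25 (adjusted p = 8.00e-06) in WT fins. The second ADAMTS15 copy, ENSDARG00000033544, changed by 1.26 ± 0.40 (adjusted p = 0.0264) in KO fins and 1.11 ± 0.40 (adjusted p = 0.0374) in WT fins at 1 dpa. At 4 dpa its change was 1.17 ± 0.40 (adjusted p = 0.0242) in KO fins and 0.85 ± 0.40 (adjusted p = 0.0827) in WT fins. None of its 3 calls held throughout. The call at 1 dpa in KO fins was lost without KO 0 dpa replicate 2 or KO 1 dpa replicates 2 or 3 (0.66 to 1.14, adjusted p 0.0904 to 0.135). In WT fins it was lost without WT 0 dpa replicates 2 or 3 or WT 1 dpa replicates 1, 2 or 3 (0.94 to 1.19, adjusted p 0.0584 to 0.133). Its KO call at 4 dpa was lost without KO 0 dpa replicate 2 or KO 4 dpa replicate 1 (0.57 to 1.03, adjusted p 0.0808 to 0.156). With the low-share libraries left out, the WT value at 1 dpa was 0.51 (adjusted p = 0.207) and the KO value at 4 dpa 0.57 (adjusted p = 0.0376). ADAMTS5 (ENSDARG00000100307), which lies next to adamts1 in the RefSeq gene order with 0 coding genes between them, changed by 0.75 ± 0.37 (adjusted p = 0.105) in KO fins and 1.06 ± 0.37 (adjusted p = 0.0227) in WT fins at 4 dpa. The WT call was lost without WT 0 dpa replicates 1 or 2 or WT 4 dpa replicates 1 or 3 (0.91 to 1.02, adjusted p 0.0505 to 0.0835).

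The ADAMTS8 copies moved in opposite directions at 1 dpa. ENSDARG00000007709 read 951, 494 and 979.5 at 0 dpa, 1507, 2091 and 2579 at 1 dpa and 516, 400.0 and 353 at 4 dpa in KO fins. In WT fins it read 609, 272 and 432 at 0 dpa, 1493, 1628 and 1576 at 1 dpa and 381, 299 and 425 at 4 dpa. Every 1 dpa library lay above every other library, with a rise of 1.38 ± 0.30 (adjusted p = 0.00245) in KO fins and 1.91 ± 0.30 (adjusted p = 0.000165) in WT fins. The log2 change from 1 to 4 dpa was -2.26 ± 0.30 (adjusted p = 4.86e-05) in KO fins and -2.10 ± 0.30 (adjusted p = 0.000171) in WT fins. At 4 dpa against 0 dpa the change was -0.88 ± 0.30 (adjusted p = 0.0222) in KO fins and -0.19 ± 0.30 (adjusted p = 0.612) in WT fins. The KO call was lost without KO 0 dpa replicates 1 or 3 or KO 4 dpa replicates 2 or 3 (-0.85 to -0.71, adjusted p 0.06 to 0.0946). The copy ENSDARG00000058252 read 557, 195 and 439 at 0 dpa, 68.5, 126 and 101 at 1 dpa and 250.4, 197 and 234 at 4 dpa in KO fins. WT fins had 584, 340.0 and 268 at 0 dpa, 98, 99.9 and 151 at 1 dpa and 329, 229 and 205 at 4 dpa. Its 1 dpa libraries lay below every other library. The log2 change at 1 dpa was -1.91 ± 0.36 (adjusted p = 0.000892) in KO fins and -1.72 ± 0.36 (adjusted p = 0.00185) in WT fins. With totals made equal outside the 5 most abundant genes, neither call held. The changes were then -1.45 (adjusted p = 0.0729) in KO fins and -0.91 (adjusted p = 0.191) in WT fins. The WT value without the low-share libraries was -2.35 (adjusted p = 5.83e-05).

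ADAMTS17 (ENSDARG00000075555) and ADAMTS18 (ENSDARG00000001999), for which human mutations are known from eye and connective tissue disorders, rose late and strongly. ADAMTS17 read 1719, 1016 and 1434 at 0 dpa, 856, 1001 and 922 at 1 dpa and 5513, 5746 and 5889 at 4 dpa in KO fins. The WT libraries held 1511, 1027 and 1197 at 0 dpa, 997, 1075 and 1230.1 at 1 dpa and 4672, 5686 and 6275 at 4 dpa. The rise from 0 to 4 dpa was 2.07 ± 0.19 (adjusted p = 5.93e-07) in KO fins and 2.16 ± 0.19 (adjusted p = 4.72e-07) in WT fins for ADAMTS17. For ADAMTS18 it was 2.54 ± 0.22 (adjusted p = 2.64e-07) in KO fins and 2.64 ± 0.22 (adjusted p = 2.25e-07) in WT fins. The 4 dpa libraries of both genes lay above all earlier ones. At 1 dpa ADAMTS17 was called lower in KO fins, at -0.55 ± 0.19 (adjusted p = 0.0402). The call was lost without KO 0 dpa replicates 1 or 3 or KO 1 dpa replicates 1, 2 or 3 (-0.61 to -0.38, adjusted p 0.0624 to 0.159). In WT fins the change at 1 dpa was -0.16 ± 0.19 (adjusted p = 0.521).

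The members below lay outside the rule for named genes and are given so that all 49 tested members are accounted for. At 4 dpa ADAMTS6 changed by 1.97 in KO fins and 2.05 in WT fins, and ADAMTS7 by 1.26 in KO fins and 1.31 in WT fins. ADAMTS10 changed by 1.63 in KO fins and 1.81 in WT fins, and adamts12 by 1.59 in KO fins and 1.41 in WT fins. All 4 were called in both genotypes. With the share of the 5 most abundant genes as a covariate, 2 of the WT calls were lost. These were ADAMTS10 (0.50, adjusted p = 0.28) and adamts12 (0.52, adjusted p = 0.263). Leaving out the low-share libraries, the WT change of ADAMTS10 was 1.04 (adjusted p = 0.00204) and that of adamts12 0.84 (adjusted p = 0.00881). ADAMTS7 and adamts12 are relatives whose mammalian counterparts cut cartilage oligomeric matrix protein, and ADAMTS6 and ADAMTS10 are known for their links to fibrillin microfibrils. ADAMTS16 was called in no comparison. The von Willebrand factor protease adamts13 rose at 1 dpa, by 0.83 ± 0.28 (adjusted p = 0.0338) in KO fins and 1.20 ± 0.28 (adjusted p = 0.00354) in WT fins. With the same covariate it was at 0.65 (adjusted p = 0.0736) in KO fins and 0.76 (adjusted p = 0.144) in WT fins, not called. The KO call was lost without KO 0 dpa replicate 2 or KO 1 dpa replicates 2 or 3 (0.60 to 0.76, adjusted p 0.11 to 0.154) and, at 0.77 (adjusted p = 0.0736), with all low-share libraries left out. Among ADAM genes outside the rule, ADAM15 changed by 0.88 in KO fins and 1.00 in WT fins and ADAM11 by 0.78 in KO fins and 1.20 in WT fins at 4 dpa. For ADAM23 the change was 1.28 in KO fins and 0.74 in WT fins, and all 3 were called. The KO call of ADAM11 was lost without KO 0 dpa replicates 2 or 3 or KO 4 dpa replicates 2 or 3 (0.67 to 0.74, adjusted p 0.0562 to 0.0717). Both ADAM11 calls were lost with that covariate, at 0.18 (adjusted p = 0.641) in KO fins and 0.30 (adjusted p = 0.561) in WT fins. The WT change of ADAM23 without the low-share libraries was 0.41 (adjusted p = 0.321). ADAM22, which like ADAM11 and ADAM23 lacks protease activity in mammals, was called in no comparison.

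**Figure D3:**
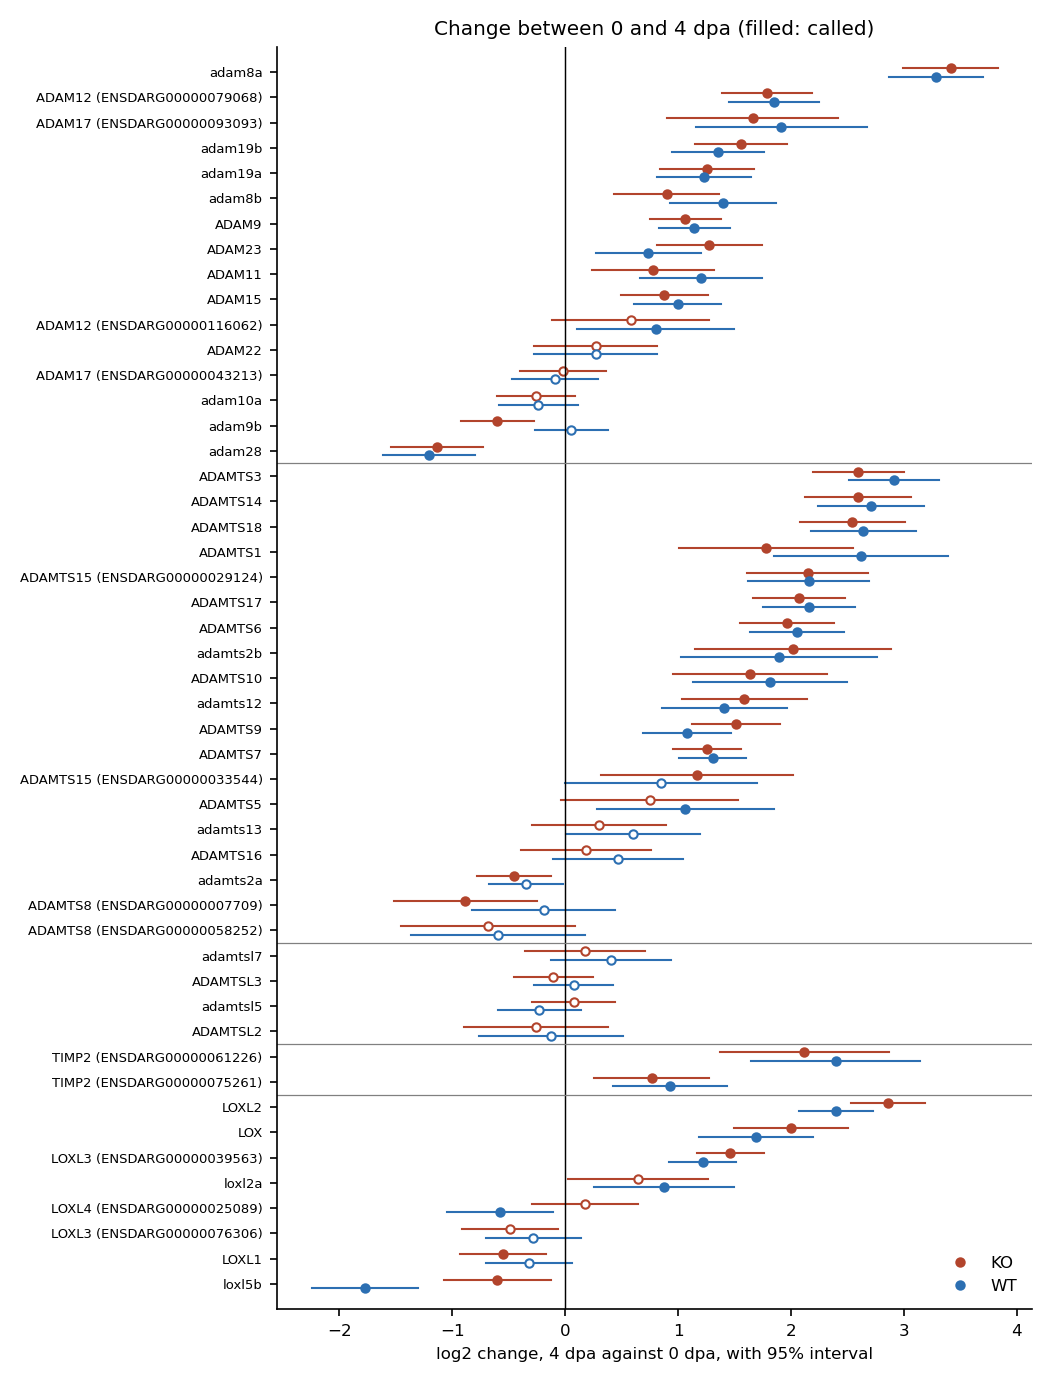
The log2 change from 0 to 4 dpa of each tested member with its 95% interval, in KO fins (red, upper) and WT fins (blue, lower), grouped from top to bottom as ADAM, ADAMTS, ADAMTS-like, TIMP and lysyl oxidase genes; filled points are called. Most ADAMTS points lie to the right of 0, up to 2.91 for ADAMTS3 in WT fins, and all 4 ADAMTS-like genes are open points.

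Of the 4 ADAMTS-like genes, 0 were called at 4 dpa in either genotype, a count too small to set against the 23.3% (KO) and 25.9% (WT) of all tested genes that rose. One of them, adamtsl7 (ENSDARG00000055439), peaked at 1 dpa. It read 59.1, 74.1 and 81.5 at 0 dpa, 1404, 782 and 620.4 at 1 dpa and 69.3, 87 and 85.2 at 4 dpa in KO fins. Its signal in WT fins was 60.2, 83.5 and 72.8 at 0 dpa, 1082, 1069 and 826 at 1 dpa and 94, 89.7 and 101 at 4 dpa. All 6 libraries of 1 dpa lay far above all 12 others, which reached 101 at most. The rise from 0 to 1 dpa was 3.61 ± 0.25 (adjusted p = 3.68e-08) in KO fins and 3.77 ± 0.25 (adjusted p = 2.97e-08) in WT fins. The log2 change from 1 to 4 dpa was -3.44 ± 0.25 (adjusted p = 1.00e-07) in KO fins and -3.36 ± 0.25 (adjusted p = 2.29e-07) in WT fins. ADAMTSL3, a relative of the matrix protein punctin, was called lower at 1 dpa in KO fins, at -0.46 ± 0.17 (adjusted p = 0.0475). This call was lost without KO 0 dpa replicates 1 or 3 or KO 1 dpa replicates 1 or 2 (-0.46 to -0.31, adjusted p 0.106 to 0.164) and, at -0.38 (adjusted p = 0.0757), with all low-share libraries left out. ADAMTSL2, which in mammals binds fibrillin and the latent TGF-beta binding protein, and adamtsl5 were called in no comparison.

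Of the 5 TIMP genes, both TIMP2 copies were measured, and the 3 TIMP4 copies were listed at 0. The copy ENSDARG00000075261 read 362, 539.7 and 557 at 0 dpa, 8401, 9666 and 8134 at 1 dpa and 787, 765 and 890.1 at 4 dpa in KO fins. In WT fins the values were 317, 490.4 and 509 at 0 dpa, 8052, 6678 and 4523 at 1 dpa and 683, 795 and 1014 at 4 dpa. The 6 libraries of 1 dpa lay above all others by a wide margin, with a rise of 4.19 ± 0.24 (adjusted p = 4.73e-09) in KO fins and 3.86 ± 0.24 (adjusted p = 1.48e-08) in WT fins. From 1 to 4 dpa it fell by 3.42 in KO fins and 2.93 in WT fins on the log2 scale, to a level still called higher than 0 dpa, at 0.77 ± 0.24 (adjusted p = 0.0144) in KO fins and 0.93 ± 0.24 (adjusted p = 0.00375) in WT fins. The KO call at 4 dpa was lost without KO 0 dpa replicate 1 or KO 4 dpa replicate 3 (0.57 to 0.70, adjusted p 0.0536 to 0.0699).

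The copy ENSDARG00000061226 had another time course. It read 1406, 588 and 1285 at 0 dpa, 1031, 1504 and 1612 at 1 dpa and 4038, 4390.1 and 4923 at 4 dpa in KO fins. In WT fins it read 1251, 434 and 536 at 0 dpa, 1519, 1112 and 1566 at 1 dpa and 3156, 3383 and 3997 at 4 dpa. Every 4 dpa library lay above every earlier library, and the rise from 0 to 4 dpa was 2.12 ± 0.35 (adjusted p = 0.000169) in KO fins and 2.40 ± 0.35 (adjusted p = 5.77e-05) in WT fins. The lowest 0 dpa values, 434 to 588, were those of the low-share libraries. Without them the rise was 1.72 (adjusted p = 4.82e-07) in KO fins and 1.48 (adjusted p = 4.62e-05) in WT fins. At 1 dpa it was at 0.41 ± 0.35 (adjusted p = 0.413) in KO fins and 1.06 ± 0.35 (adjusted p = 0.0256) in WT fins. The WT call was lost without WT 0 dpa replicates 2 or 3 or WT 1 dpa replicates 1 or 3 (0.76 to 0.99, adjusted p 0.0734 to 0.14) and, at 0.14 (adjusted p = 0.662), with all low-share libraries left out. The WT rise from 1 to 4 dpa was 1.34 ± 0.35 (adjusted p = 0.0192). This call was lost without WT 1 dpa replicates 1 or 2 or WT 4 dpa replicates 2 or 3 (1.18 to 1.40, adjusted p 0.0503 to 0.0931).

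Of the 8 tested lysyl oxidases, 3 rose and 2 fell at 4 dpa in KO fins, and 4 rose and 2 fell in WT fins. That is 37.5% and 25% (KO) and 50% and 25% (WT), against 23.3% and 25.7% (KO) and 25.9% and 29.6% (WT) of all tested genes. The share that fell lay near the background, and 8 genes are few for such a comparison. LOXL2 (ENSDARG00000044074), an enzyme that crosslinks collagen IV among other chains, read 927, 833 and 751 at 0 dpa, 1487, 2105 and 1915 at 1 dpa and 6093, 5924 and 6139 at 4 dpa in KO fins. WT fins had 1084, 1083 and 929 at 0 dpa, 2462, 2013 and 2339.9 at 1 dpa and 4972, 5407 and 5939 at 4 dpa. Each time point lay above the one before, with no overlap in either genotype. The rise was 1.12 ± 0.15 (adjusted p = 5.01e-05) in KO fins and 1.14 ± 0.15 (adjusted p = 4.39e-05) in WT fins at 1 dpa. At 4 dpa it was 2.86 ± 0.15 (adjusted p = 2.18e-09) in KO fins and 2.40 ± 0.15 (adjusted p = 1.55e-08) in WT fins. The change of loxl2a (ENSDARG00000044010) at 4 dpa was 0.65 ± 0.29 (adjusted p = 0.0776) in KO fins and 0.88 ± 0.29 (adjusted p = 0.0181) in WT fins. Its WT call was lost without WT 0 dpa replicates 2 or 3 or WT 4 dpa replicate 3 (0.75 to 0.81, adjusted p 0.0591 to 0.0734) and, at 0.51 (adjusted p = 0.153), with all low-share libraries left out.

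LOX (ENSDARG00000003259), the founding enzyme of the family, read 489.6, 804 and 724 at 0 dpa, 528, 687 and 563 at 1 dpa and 2918, 2816 and 2231 at 4 dpa in KO fins. The WT libraries held 497, 906 and 885 at 0 dpa, 454, 431 and 496 at 1 dpa and 1909.5, 2698 and 2614 at 4 dpa. Its 4 dpa libraries lay above all others, with a rise from 0 dpa of 2.00 ± 0.24 (adjusted p = 7.49e-06) in KO fins and 1.69 ± 0.24 (adjusted p = 4.02e-05) in WT fins. At 1 dpa it was called lower in WT fins, at -0.68 ± 0.24 (adjusted p = 0.0326), and not in KO fins, at -0.16 ± 0.24 (adjusted p = 0.654). The WT call was lost without WT 0 dpa replicates 2 or 3 or WT 1 dpa replicates 1, 2 or 3 (-0.73 to -0.53, adjusted p 0.0571 to 0.145) and, at -0.11 (adjusted p = 0.789), with all low-share libraries left out. The LOXL3 copy ENSDARG00000039563 rose at 4 dpa, by 1.46 ± 0.14 (adjusted p = 7.59e-07) in KO fins and 1.22 ± 0.14 (adjusted p = 5.92e-06) in WT fins. The copy ENSDARG00000076306 fell at 1 dpa, by 0.84 in KO fins and 0.72 in WT fins on the log2 scale (adjusted p = 0.00468 in KO fins and 0.00992 in WT fins), and was at -0.49 in KO fins and -0.28 in WT fins at 4 dpa, not called. Its KO call at 1 dpa was lost with totals made equal outside the 5 most abundant genes (-0.38, adjusted p = 0.442). Its WT value at 1 dpa without the low-share libraries was -0.84 (adjusted p = 0.0529).

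LOXL4 (ENSDARG00000025089), a collagen crosslinker of the same family, had the deepest dip among the tested members at 1 dpa. It read 1454, 2284 and 1172 at 0 dpa, 419.6, 297 and 301 at 1 dpa and 1841, 1689 and 1805 at 4 dpa in KO fins. Its signal in WT fins was 1662, 2646 and 2285 at 0 dpa, 377, 399 and 425 at 1 dpa and 1331, 1450.1 and 1563 at 4 dpa. All 6 libraries of 1 dpa lay below all 12 others, with a log2 change from 0 to 1 dpa of -2.23 ± 0.22 (adjusted p = 1.82e-06) in KO fins and -2.43 ± 0.22 (adjusted p = 8.40e-07) in WT fins. The rise from 1 to 4 dpa was 2.40 ± 0.22 (adjusted p = 1.21e-06) in KO fins and 1.85 ± 0.22 (adjusted p = 3.23e-05) in WT fins. At 4 dpa against 0 dpa it was at 0.18 ± 0.22 (adjusted p = 0.538) in KO fins and -0.58 ± 0.22 (adjusted p = 0.0364) in WT fins. The WT call was lost without WT 0 dpa replicates 2 or 3 or WT 4 dpa replicates 1, 2 or 3 (-0.64 to -0.43, adjusted p 0.0514 to 0.158) and, at -0.20 (adjusted p = 0.345), with all low-share libraries left out. LOXL1 (ENSDARG00000054451), needed for elastic fibres in mice, was at -0.55 ± 0.18 (adjusted p = 0.0192) in KO fins and -0.32 ± 0.18 (adjusted p = 0.141) in WT fins at 4 dpa. Its KO call was lost without KO 0 dpa replicates 1 or 3 or KO 4 dpa replicates 2 or 3 (-0.52 to -0.43, adjusted p 0.0582 to 0.0791).

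At 4 dpa the 10 fibroblast and blastema markers, 1 of them at 0 throughout, summed to 102028 to 113901 in KO fins, against 39513 to 57369 in KO fins at 0 dpa. In WT fins they summed to 93991 to 109227, against 46341 to 70152 in WT fins at 0 dpa. The osteoblast markers, 9 genes of which bglap and a COL10A1 copy were at 0, summed to 44266 to 53299 in KO fins at 4 dpa against 17938 to 35333 at 0 dpa. In WT fins the sums were 35235 to 42337 at 4 dpa against 22508 to 39536 at 0 dpa. Those of the endothelium, 7 genes, summed to 4443 to 4607 in KO fins at 4 dpa against 1882 to 2088 at 0 dpa. WT sums were 3977 to 4479 at 4 dpa against 1694 to 1873 at 0 dpa. Of the tested markers, 5 of 9 fibroblast and blastema genes rose and 2 fell in KO fins, and 5 rose and 3 fell in WT fins. Of 7 osteoblast genes, 4 rose and 0 fell in KO fins, and 3 rose and 1 fell in WT fins. Of 7 endothelial genes, 7 rose in KO fins and 6 in WT fins. Of all tested genes, 23.3% rose and 25.7% fell in KO fins, and 25.9% and 29.6% in WT fins. Other lists had lower sums at 4 than at 0 dpa. Basal epidermis sums were 134478 to 166735 (KO) and 157477 to 173519 (WT) at 4 dpa. At 0 dpa they were 203974 to 376469 (KO) and 241397 to 333640 (WT). Nerve and Schwann cell sums were 192 to 266 (KO) and 177 to 507 (WT) at 4 dpa. At 0 dpa they were 987 to 1699 (KO) and 1007 to 1653 (WT). Macrophage sums at 4 dpa were 18121 to 25971 (KO) and 27212 to 37788 (WT), below those at 0 dpa. Muscle and erythrocyte sums overlapped between 0 and 4 dpa. The part of any of these cell types in the rise of the ADAMTS, TIMP2 and lysyl oxidase genes was not tested.

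Among the 49 tested members were 11 pairs of genes that share a symbol or a name stem, and the ratio within several pairs shifted after amputation. As lengths were not used, only the shift of a ratio over time is read, and not which gene was higher. The log2 ratio of the TIMP2 copy ENSDARG00000061226 to ENSDARG00000075261 within a library ranged over -0.17 to 1.98 at 0 dpa, -3.03 to -1.53 at 1 dpa and 1.98 to 2.52 at 4 dpa (6 libraries each). The 1 dpa libraries thus stood apart from both other times. For ADAMTS8, ENSDARG00000007709 over ENSDARG00000058252, the ranges were -0.32 to 1.34, 3.38 to 4.66 and 0.21 to 1.05 at these times. Here too the 1 dpa libraries did not overlap the others, and 0 and 4 dpa overlapped.

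The ratio of the ADAM17 copy ENSDARG00000043213 to ENSDARG00000093093 lay lower at 1 and 4 dpa than at 0 dpa, with 0.51 to 2.46 at 0 dpa, -0.54 to 0.13 at 1 dpa and -0.47 to -0.23 at 4 dpa. That of adam8a to adam8b ranged over -2.97 to -1.11, 0.43 to 1.05 and -0.21 to 0.25, and that of adamts2a to adamts2b over 3.57 to 5.25, 3.81 to 5.01 and 1.50 to 2.60. By contrast the ratio of adam19a to adam19b overlapped at all 3 times, with 0.43 to 1.18, 0.25 to 1.21 and 0.27 to 0.95. These ratios are descriptions with no test, and where copies are near-identical in sequence a read could have been counted for either.

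**Figure D4:**
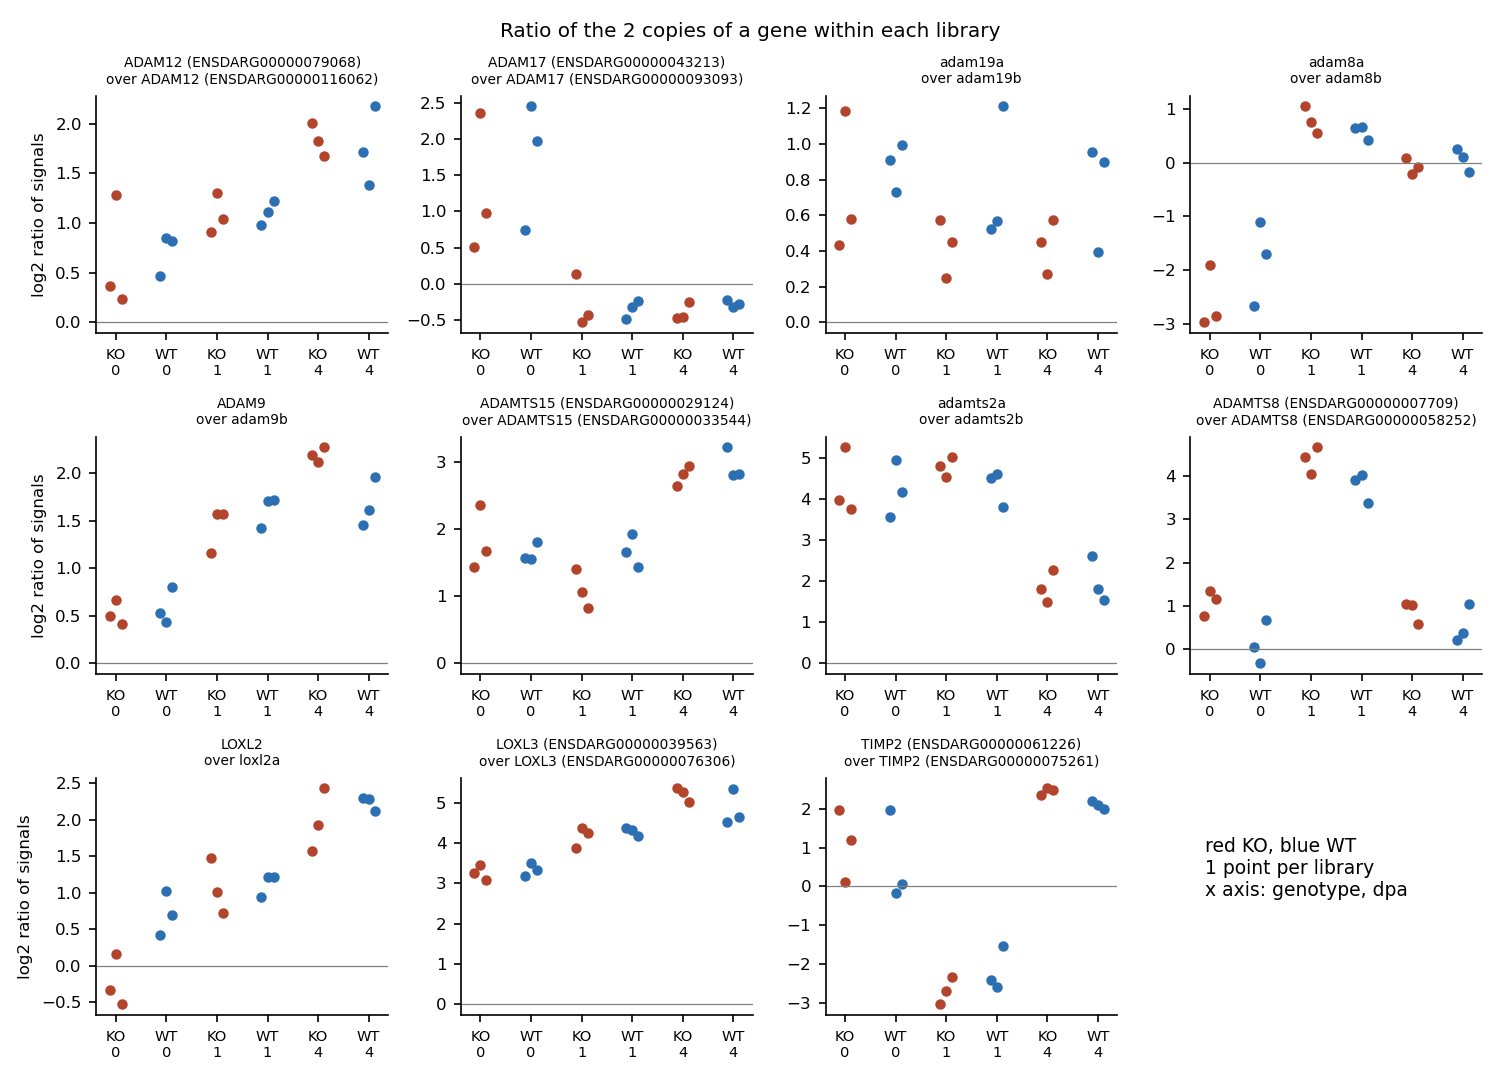
Log2 ratio of the signals of the 2 genes of each of 11 pairs, 1 point per library (KO red, WT blue), at 0, 1 and 4 dpa. The TIMP2 ratio lies between -3.03 and -1.53 at 1 dpa and between 1.98 and 2.52 at 4 dpa, while the points of adam19a over adam19b overlap at all times.

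Between genotypes, 0 of the 49 members were called at 0, 1 or 4 dpa or for the average over the times, against 0.101%, 0.00439%, 0.0351% and 0.14% of all tested genes. Members with an unadjusted p under 0.05 numbered 4, 0, 3 and 2. For this limma fit the count of all tested genes under that threshold is not given here, nor for its interactions below. The edgeR quasi-likelihood test called 0 (4, 0, 3 and 2 at the unadjusted threshold), and so did DESeq2 (5, 2, 2 and 2). Of all 22779 tested genes, edgeR called 31, 1, 4 and 33, and 1190, 498, 684 and 770 passed its unadjusted threshold. DESeq2 called 96, 20, 15 and 56 of them, and 1404, 627, 785 and 913 passed its unadjusted threshold. In the limma fit no member was called for an interaction of genotype with the change at 1 dpa or at 4 dpa. No gene of the whole table was called there either (0%), and 1 and 3 members had an unadjusted p under 0.05. For the interactions edgeR and DESeq2 likewise called 0 members, with 2 and 3 (edgeR) and 2 and 4 (DESeq2) at the unadjusted threshold. Of all tested genes, edgeR called 0 and 0 and DESeq2 5 and 1. The unadjusted threshold was passed by 1133 and 871 (edgeR) and 1383 and 1024 (DESeq2). The unadjusted 95% intervals of the single differences reached 0.47 to either side at the median. A call also needed to pass the adjustment over all tested genes. Even the largest difference, 0.95 for loxl5b at 4 dpa, did not (adjusted p = 0.347), so differences well above 0.47 could go uncalled.

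Closest to the threshold was loxl5b (ENSDARG00000076904), a lysyl oxidase gene, at 4 dpa. It read 130.0, 109 and 135 at 0 dpa, 121, 88.1 and 115 at 1 dpa and 89.4, 67.5 and 89.3 at 4 dpa in KO fins. In WT fins the values were 109.8, 163 and 171 at 0 dpa, 78.4, 87.4 and 75.3 at 1 dpa and 47, 44.8 and 34.6 at 4 dpa. At 4 dpa its KO libraries lay above its WT libraries with no overlap, as they did at 1 dpa, while at 0 dpa they overlapped. At 4 dpa 1 read stood for a signal of 2.47 to 2.49 in WT fins and 1.12 to 1.35 in KO fins. The WT values there thus rested on few reads. The difference at 4 dpa was 0.95 ± 0.22 (unadjusted p = 5.96e-04, adjusted p = 0.347). Over time loxl5b fell by 0.60 at 4 dpa in KO fins (adjusted p = 0.0346) and by 1.77 in WT fins (adjusted p = 1.47e-05). The KO call was lost without KO 0 dpa replicates 1 or 3 or KO 4 dpa replicate 2 (-0.57 to -0.47, adjusted p 0.08 to 0.14), and the interaction was 1.17 ± 0.31 with an adjusted p of 0.992.

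At 0 dpa the largest difference was that of the ADAMTS8 copy ENSDARG00000007709, with 808 ± 272 in KO fins and 438 ± 168 in WT fins (SD, n = 3 each; 0.89 ± 0.30, adjusted p = 0.702). The 2 WT libraries and the KO library with the lowest values were low-share libraries, and without them the difference was 0.66 (adjusted p = 0.538). The KO and WT libraries did not overlap for 1 member at 0 dpa (LOXL2), 9 at 1 dpa and 10 at 4 dpa, or 2.04%, 18.4% and 20.4% of the 49, against 7.14%, 8.45% and 11% of all tested genes. Of the 19 ADAMTS genes, KO minus WT was above 0 for 17 at 0 dpa, for 3 at 1 dpa and for 15 at 4 dpa. Of all tested genes it was above 0 for 47.6%, 53.9% and 51.4%. Without the low-share libraries the ADAMTS counts were 10 at 0 dpa and 7 at 1 dpa, with the 4 dpa libraries unaffected, and under equal totals they were 19, 1 and 19. With the share of the 5 genes as a covariate they were 12, 7 and 17. Equal totals moved all genes too: the median interaction of genotype with the change at 1 dpa was then -0.31 over all tested genes. A cause of these signs was not tested.

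**Figure D5:**
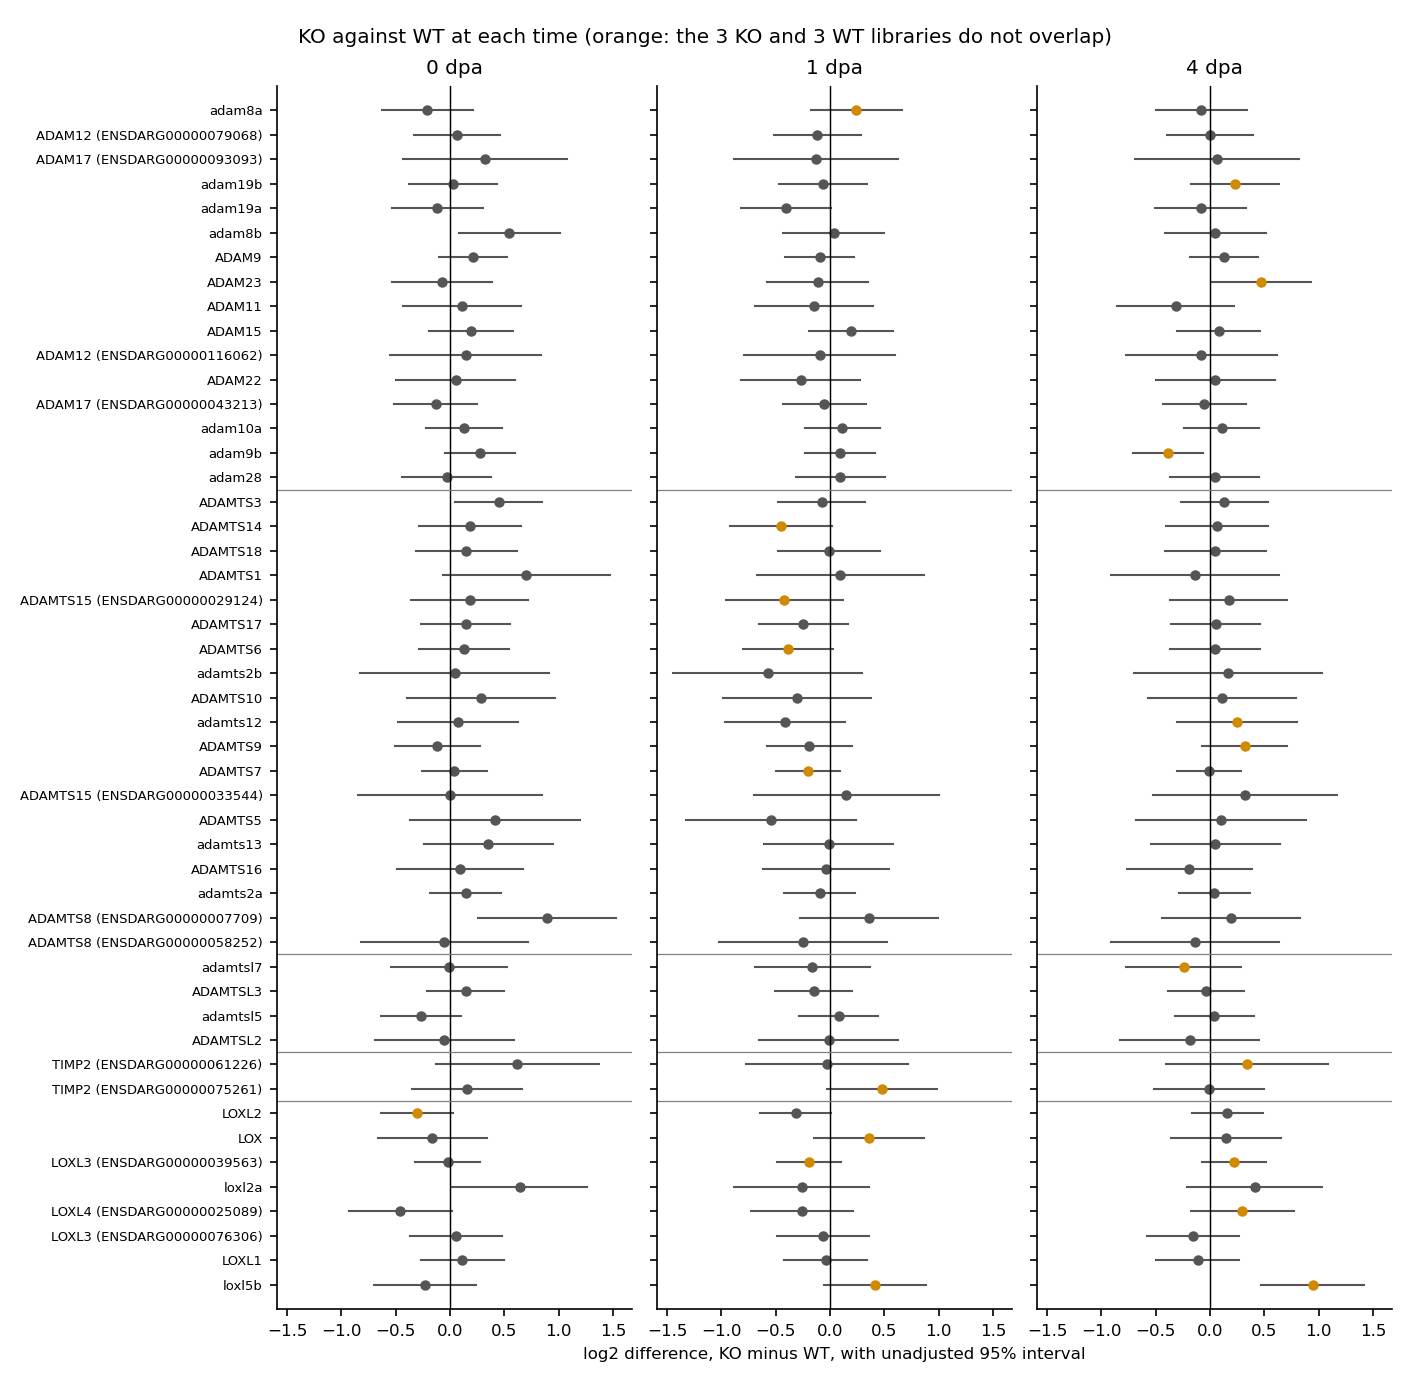
KO minus WT log2 difference of each tested member at 0, 1 and 4 dpa with its unadjusted 95% interval, in the family order of the earlier plots; orange points mark members whose 3 KO and 3 WT libraries do not overlap. The largest difference is 0.95 for loxl5b at 4 dpa, and no member is called.

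Genes that work with the members were followed as lists of known activators, regulators and substrates, 59 tested genes in all. Of these, 31 rose and 11 fell at 4 dpa in KO fins, and 30 rose and 11 fell in WT fins, beside 23.3% and 25.7% (KO) and 25.9% and 29.6% (WT) of all tested genes. At 1 dpa 17 rose and 13 fell in KO fins, and 19 rose and 16 fell in WT fins, beside 15.4% and 13.9% (KO) and 19.1% and 21.1% (WT) of all tested genes. None was called between genotypes. The same shares of all tested genes stand beside the counts of the smaller lists below, which hold few genes each.

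Among the convertases and procollagen processing genes, 5 of 9 rose and 1 fell at 4 dpa in each genotype. The BMP1 copy ENSDARG00000028071, a procollagen C-proteinase that also activates lysyl oxidase, rose by 1.81 ± 0.22 (adjusted p = 8.38e-06) in KO fins and 2.51 ± 0.22 (adjusted p = 3.38e-07) in WT fins. The enhancer of that proteinase differed between genes. PCOLCE2 ENSDARG00000055575 rose by 3.26 ± 0.24 (adjusted p = 4.54e-08) in KO fins and 2.81 ± 0.24 (adjusted p = 2.84e-07) in WT fins. In contrast, pcolceb fell, with -2.43 ± 0.34 (adjusted p = 3.82e-05) in KO fins and -2.69 ± 0.34 (adjusted p = 1.67e-05) in WT fins, the WT value being -2.02 (adjusted p = 7.82e-05) without the low-share libraries. Of 10 regulators of ADAM10 and ADAM17, 6 rose and 2 fell in each genotype. RECK, a membrane-anchored inhibitor of matrix proteases, rose by 1.05 ± 0.19 (adjusted p = 0.000344) in KO fins and 1.16 ± 0.19 (adjusted p = 0.000139) in WT fins. TSPAN33, a tetraspanin that guides ADAM10, fell, with -2.20 ± 0.35 (adjusted p = 0.000112) in KO fins and -2.49 ± 0.35 (adjusted p = 3.76e-05) in WT fins. Its WT value was -1.85 (adjusted p = 0.000247) without the low-share libraries.

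Among known substrates of ADAM10 and ADAM17, 2 of 13 rose and 8 fell at 4 dpa in KO fins, and 2 rose and 7 fell in WT fins. Of all tested genes more fell than rose as well, 25.7% against 23.3% (KO) and 29.6% against 25.9% (WT). A list of 13 genes is small for such a comparison. The EGF receptor ligand gene hbegfa averaged 234 in KO fins at 4 dpa against 3464 at 0 dpa. It averaged 360.3 in WT fins at 4 dpa against 3827 at 0 dpa. The log2 change was -3.84 ± 0.34 (adjusted p = 3.62e-07) in KO fins and -3.34 ± 0.34 (adjusted p = 2.02e-06) in WT fins, and the WT value was -2.70 (adjusted p = 6.56e-05) without the low-share libraries. Its relative HBEGF rose at 1 dpa by 3.01 ± 0.46 (adjusted p = 0.000152) in KO fins and 1.83 ± 0.46 (adjusted p = 0.00593) in WT fins. N-cadherin, CDH2, rose by 2.70 ± 0.19 (adjusted p = 3.22e-08) in KO fins and 2.76 ± 0.19 (adjusted p = 3.27e-08) in WT fins.

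Of 7 proteoglycans cut by ADAMTS enzymes, 4 rose at 4 dpa and 0 fell in each genotype. Versican, vcana, was already up at 1 dpa, by 4.81 ± 0.20 (adjusted p = 1.33e-10) in KO fins and 5.12 ± 0.20 (adjusted p = 1.16e-10) in WT fins. At 4 dpa it was up by 4.45 ± 0.20 (adjusted p = 2.83e-10) in KO fins and 4.62 ± 0.20 (adjusted p = 2.52e-10) in WT fins. Of 15 substrates and organisers of lysyl oxidase, 12 rose and 0 fell in KO fins at 4 dpa, and 11 rose and 1 fell in WT fins. The fibre organiser fbln5 rose by 2.47 ± 0.20 (adjusted p = 1.05e-07) in KO fins and 2.33 ± 0.20 (adjusted p = 2.56e-07) in WT fins. Another, EFEMP2 ENSDARG00000094324, rose by 3.10 ± 0.23 (adjusted p = 4.96e-08) in KO fins and 2.98 ± 0.23 (adjusted p = 9.44e-08) in WT fins.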

How the data were processed

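RNA of 18 caudal fin pools was sequenced as Tn5-tagged cDNA, per the labels' protocols. STAR 2.7.10 with the build danRer11, and for trimming Trim Galore 0.6.7 with cutadapt 3.5, are named by the submitters' processing notes. Which annotation and strand setting served the counting is not given in the sources used. The deposited signal values are gene counts that the authors divided by 1 size factor per library. Within a tolerance of 0.001, 100% of the values were whole multiples of a single step in each library, which gave back the read counts and the depth of 58.6 M to 155 M reads.

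Symbols came from a gene name table that names 29201 of the 32520 IDs, often by the human gene's symbol. Differences were fitted with limma 3.58.1 (R 4.3.3, trend on) on log2(signal + 1), over genes that reached a signal of 10 in 3 or more libraries, with all 6 groups in the fit (12 residual degrees of freedom). Adjusted p-values are Benjamini-Hochberg values over 22779 genes. The fit was tested on simulated data. Alternatives used edgeR 4.0.16 and DESeq2 1.42.0 on the recovered reads, other scalings, filters and pseudocounts, a replicate block, and fits without single or low-share libraries.

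Members named were those called between genotypes, all tested TIMP and lysyl oxidase genes, up to 5 called members per direction and time comparison whose groups did not overlap, and listed sheddases, procollagen N-proteinases and proteoglycanases. The symbol rule for the members used no measured value, but these families, the members named and the gene lists were chosen with earlier results of these data known. Of 66 partner and 78 marker entries, 7 and 11 had no ID. The gene order came from the RefSeq table of another assembly (GRCz12tu).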

Additional observations from a re-analysis of the deposited data

Results flagged for a closer look

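The LOXL3 copy ENSDARG00000039563 had its KO libraries all below its WT libraries at 1 dpa and all above them at 4 dpa. The log2 difference, KO minus WT, was -0.19 at 1 dpa and 0.22 at 4 dpa. At 1 dpa it read 1467, 1729.8 and 1694 in KO fins and 1972, 1747 and 1857 in WT fins, and at 4 dpa 4293, 3962 and 4575 in KO fins and 3399, 3877 and 3727 in WT fins. Neither difference was called, and the change of the difference between these times was not tested.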

How the results depend on the processing

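Of 166 calls of a member over time, 109 were kept under every alternative run. Of the 2656 values under alternatives, 2443 kept their direction and their call, 198 kept the direction but lost the call, and 15 reversed. By comparison, the calls kept under every alternative were 10 of 19 (KO) and 10 of 22 (WT) at 1 against 0 dpa, 24 of 34 (KO) and 21 of 33 (WT) at 4 against 0 dpa, and 24 of 31 (KO) and 20 of 27 (WT) at 4 against 1 dpa. When only the libraries of the compared groups were fitted, 12 members were called between 1 and 0 dpa in KO fins instead of 19, with fewer libraries behind the fit. The share of all tested genes called in that fit is not given here.

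The member counts in this paragraph are given without the share of all tested genes called under the same setting. Whether the members exceed that share there is thus not shown. With 1 library left out at a time, the members called numbered 14 to 19 (KO) and 18 to 28 (WT) at 1 against 0 dpa, 29 to 33 in both genotypes at 4 against 0 dpa, and 27 to 32 (KO) and 21 to 28 (WT) at 4 against 1 dpa. On the recovered reads edgeR called 6996 (KO) and 9452 (WT) of all tested genes at 1 against 0 dpa and 11308 (KO) and 12199 (WT) at 4 against 0 dpa. The comparisons between genotypes and the interactions called 0 members under all alternatives run. In 0 of 15 pairs of groups were all 3 same-number correlations over 0.1 (range -0.61 to 0.74), so replicate numbers were not treated as pairs. For KO and WT fins at 0 dpa these correlations were 0.74, 0.60 and -0.22. Whether some libraries shared a batch was not tested. With the replicate block, 17 were called at 1 against 0 dpa in KO fins and 22 in WT fins, 35 at 4 against 0 dpa in KO fins and 32 in WT fins, and 29 at 4 against 1 dpa in KO fins and 27 in WT fins.

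The reversed log2 changes came from 2 settings. With equal totals outside the 5 most abundant genes, the KO changes from 0 to 4 dpa were 0.31 for adam9b, 0.46 for adamts2a, 0.028 for the ADAMTS8 copy ENSDARG00000007709, 0.37 for LOXL1 and 0.30 for loxl5b, and the KO change at 1 dpa was 0.0099 for ADAMTSL3. There the WT changes were 0.19 for LOXL4 at 4 dpa and, at 1 dpa, 0.32 for adamts2a, 0.13 for LOX and 0.081 for the LOXL3 copy ENSDARG00000076306. All of these lay below the median of all genes under that scaling, which was 0.87 (KO) and 0.72 (WT) at 4 dpa and 0.42 (KO) and 0.76 (WT) at 1 dpa. With the share of these genes as a covariate, the WT changes at 4 dpa were -0.20 for the ADAM12 copy ENSDARG00000116062, -0.11 for ADAMTS5, -0.17 for loxl2a and 0.12 for LOXL4, and the WT change at 1 dpa of the ADAMTS15 copy ENSDARG00000033544 was -0.045. The cause was not tested.

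A depth of 10.5 M to 75.5 M reads outside the 5 most abundant genes sets the precision of low members. This depth was lowest in WT fins at 4 dpa, at 10.5 M to 10.9 M. Pools hide the spread between single fish.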
